A study of Mus musculus with 3 samples.

Results

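Nonclassical monocytes, the patrolling monocytes that crawl along the inner wall of small blood vessels, were identified in single-cell RNA-seq libraries of sorted lung cells from mice with an inducible EGFR-driven lung tumor model. The cells were chosen by their own RNA: a barcode counted as a nonclassical monocyte when it held at least 3 unique molecular identifiers (UMIs, the molecules counted per cell) summed over Treml4, Adgre4, Cd300e and Eno3, no F13a1, at most 4 UMIs of the complement genes C1qa, C1qb and C1qc, and at most 1 UMI each of the alveolar macrophage genes Marco and Siglecf together, of the T cell receptor genes Cd3d, Cd3e and Cd3g together, and of Cd79a, Epcam and Cdh5 together. This rule found 1585 cells among 12458 barcodes with at least 1000 UMIs, at least 500 genes and at most 10% mitochondrial UMIs. Of them, 913 came from the PPARγ-/- tumor library, 428 from the WT tumor library and 244 from the WT healthy library.

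Each group was 1 library, made from the pooled cells of 3 mice, so no test between groups was possible, and every interval below covers counting error only. The PPARγ-/- tumor mice carried Ccsp-rtTA, TetO-EGFRL858R, floxed Pparγ alleles (Pparγfl/fl) and Csf1rCre. The WT tumor mice carried Ccsp-rtTA, TetO-EGFRL858R and Pparγfl/fl without Cre, and the WT healthy mice carried Ccsp-rtTA and TetO-EGFRL858R without floxed alleles. Ccsp-rtTA places a doxycycline-dependent activator under a promoter of airway club cells, and TetO-EGFRL858R is the mutant receptor gene (L858R) that it switches on. Csf1rCre acts in cells that use the Csf1r promoter, which include macrophages as well as monocytes, so Pparg was not targeted in nonclassical monocytes alone. The labels give doxycycline chow at 625 ppm and an age of 16 to 20 weeks for all 3 groups. Lungs were digested with collagenase, and sorted alveolar macrophages, CD11b+ Ly6G- cells, T cells and epithelial cells were mixed in equal proportion, so the mixing sets the share of any cell type in part.

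Nonclassical monocytes arise from classical Ly6C-high monocytes, and in mice they depend on the nuclear receptor Nr4a1 and the factor Cebpb for their development. They carry high CX3CR1, CD43 (Spn) and the Fc receptor Fcgr4, use the integrin LFA-1 (Itgal with Itgb2) to crawl, and rely on CSF1 receptor signaling to survive. In the lung they are known in mice for surveying capillaries and for taking up tumor material that reaches them. PPARγ is a lipid-activated nuclear receptor that pairs with RXR and switches on genes of fatty acid uptake, transport and storage, such as Cd36, Fabp4 and Plin2.

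The libraries held 44548318 UMIs (PPARγ-/- tumor), 46148658 UMIs (WT tumor) and 30454790 UMIs (WT healthy) over all barcodes. The nonclassical monocytes had a median of 2978 UMIs in PPARγ-/- tumor, 2899.5 in WT tumor and 4602.5 in WT healthy lungs, and their summed counts were 3396751, 1594515 and 1392550 UMIs in the same order. No barcode sequence of a nonclassical monocyte occurred in more than 1 library. Levels are given in CPM, the UMIs of a gene per 1000000 UMIs of the summed cells. The female-specific RNA Xist stood at 0.3 CPM in PPARγ-/- tumor, 1.3 CPM in WT tumor and 874.7 CPM in WT healthy nonclassical monocytes, and Y-linked Ddx3y at 113.9, 101.6 and 0 CPM, although the labels describe both sexes. The WT tumor over WT healthy comparison therefore cannot tell tumor, floxed alleles and sex apart, whereas both tumor libraries had the same pattern of these genes.

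The gate genes, which define the cells and are no result, were Treml4 (an immunoglobulin-family receptor, ENSMUSG00000051682, chr17:48264295-48275360 in GRCm38) at 600, 465 and 422 CPM in PPARγ-/- tumor, WT tumor and WT healthy cells, Adgre4 (an adhesion G protein-coupled receptor) at 699, 642 and 600 CPM, Cd300e (an activating receptor) at 595, 494 and 393 CPM, and Eno3 (a muscle-type enolase) at 530, 411 and 348 CPM. Nr4a1 (ENSMUSG00000023034, chr15:101254269-101274795), which the rule did not use, had a UMI in 87.7% of PPARγ-/- tumor, 84.6% of WT tumor and 98.8% of WT healthy cells. The 4 gate genes were found together in 373, 138 and 104 cells of the same libraries.

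Markers of other cells were not all at 0. In PPARγ-/- tumor, WT tumor and WT healthy cells, the C1q macrophage list summed to 3629, 3372 and 2024 CPM, nearly all of it Apoe, the classical list to 1243, 1364 and 911 CPM, with Hp or Chil3 highest, and the alveolar list to 586, 990 and 449 CPM, with Ear1 or Chil3 highest. Epithelial markers summed to 344, 515 and 183 CPM, endothelial markers to 106, 92.8 and 63.2 CPM. T cell markers summed to 16.8, 10.0 and 7.90 CPM, dendritic markers to 43.0, 158 and 139 CPM, and neutrophil markers to 130, 108 and 433 CPM, most of it Csf3r in the tumor libraries. Ly6g was at 0 in all 3 libraries, and the B cell gene Ms4a1 and the macrophage gene Folr2 were too. RNA released by other cells was estimated from surfactant and secretoglobin genes, against barcodes with 10 to 100 UMIs, at 1.61%, 1.78% and 0.751% of the UMIs of these cells. A UMI of a dendritic marker or of the neutrophil genes S100a8, S100a9, Retnlg or Ly6g was found in 44 PPARγ-/- tumor, 24 WT tumor and 18 WT healthy cells, and values without those cells are given where they differ.

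The rule's lower edge was gradual. A marker sum of exactly 3 was found in 97 PPARγ-/- tumor, 61 WT tumor and 21 WT healthy cells, and 67, 68 and 25 cells met every other limit with a sum of 2. Spn stood at 801 CPM in the cells just inside and 509 CPM in the cells just outside in PPARγ-/- tumor, at 584 and 296 CPM in WT tumor, and at 618 and 232 CPM in WT healthy. The median sum was 7, 6 and 8 UMIs, with a highest cell of 56, 35 and 53 UMIs.

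Nonclassical monocytes made up 17.8% of filtered cells in PPARγ-/- tumor (exact 95% binomial interval 16.7% to 18.8%), 9.79% in WT tumor (8.92% to 10.7%) and 8.28% in WT healthy lungs (7.31% to 9.33%). Classical monocytes, taken as cells with F13a1, at least 2 UMIs of Ly6c2 and Ccr2, at most 1 UMI of the 4 gate genes and the same limits on other cells, numbered 45, 70 and 65. Of the 2 kinds of monocyte together, nonclassical cells were 95.3% in PPARγ-/- tumor (93.8% to 96.6%), 85.9% in WT tumor (82.6% to 88.9%) and 79.0% in WT healthy lungs (74.0% to 83.4%). The 2 rules ask for different genes and UMI numbers, so a monocyte can meet neither. This share therefore holds for these rules only. The PPARγ-/- tumor library was the highest on both denominators, and its interval met neither of the other intervals. The part of the pooled gates in these shares was not tested. Differences between mice and between libraries were not measured.

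**Figure D1:**
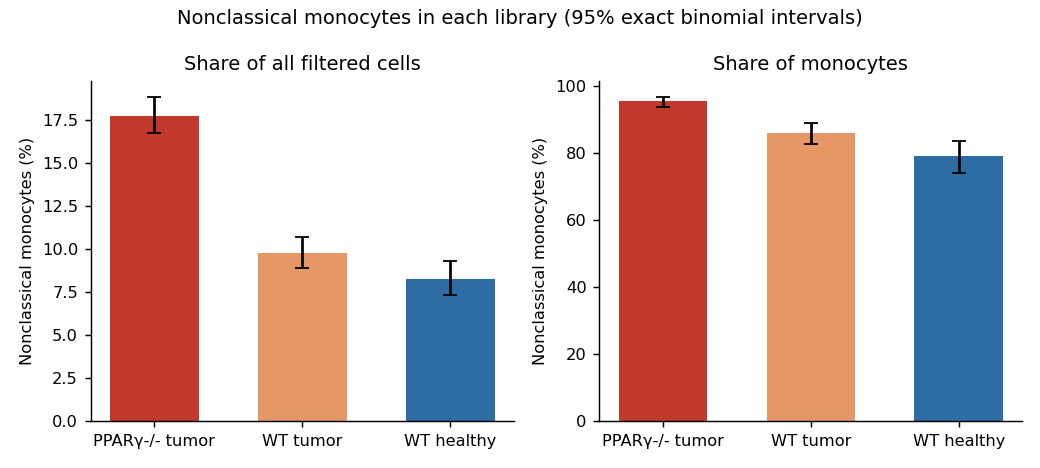
Nonclassical monocytes as a percentage of all filtered cells (left) and of nonclassical plus classical monocytes (right), 1 bar for each library, with exact 95% binomial intervals for counting error. PPARγ-/- tumor stands highest in both panels, at 17.8% and 95.3%.

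Nonclassical monocytes of PPARγ-/- tumor lungs had identity genes close to the WT tumor level, less RNA of 5 PPARγ target genes and of 9 antigen presentation genes, and more RNA of Il10, Hp, Pdgfb, Mmp14, Wnt6 and Gpr84. Levels were compared as the log2 ratio of CPM over the summed cells, and a gene was called when the ratio passed 1.5-fold and its 95% interval left out equality. Of 9252 genes with at least 20 UMIs over both libraries, 418 were called higher in PPARγ-/- tumor (4.52%) and 552 lower (5.97%), 970 in all (10.5%). The median log2 ratio over these genes was 0.01.

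Of 18 identity genes beyond the gate, none was called in either direction, beside 10.5% of all genes, and their median log2 ratio was 0.12. Nr4a1 stood at 1092 CPM in PPARγ-/- tumor and 1123 CPM in WT tumor cells (log2 ratio -0.04, interval -0.12 to 0.04). Cebpb, the other factor these cells need, had 1996 and 2173 CPM (-0.12, -0.18 to -0.06), and Spn 885 and 873 CPM. The fractalkine receptor Cx3cr1 was at 999 CPM in PPARγ-/- tumor and 739 CPM in WT tumor (0.43, 0.34 to 0.53), short of the 1.5-fold limit, and so was Csf1r at 1299 and 889 CPM (0.55, 0.46 to 0.63). Ace, Pou2f2 and Pglyrp1 were not called either.

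**Figure D2:**
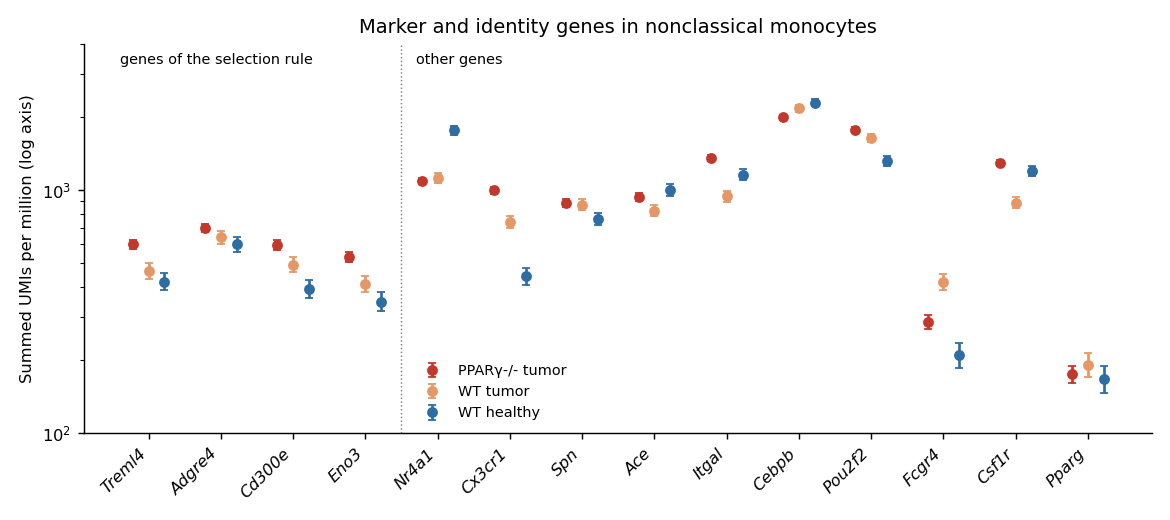
CPM of summed UMIs on a log axis for the 4 genes of the rule and 10 other genes, with exact Poisson intervals, in PPARγ-/- tumor, WT tumor and WT healthy nonclassical monocytes. Nr4a1 is highest in WT healthy cells at 1764 CPM, and Pparg lies between 167 and 191 CPM in all 3 libraries.

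Pparg RNA (ENSMUSG00000000440, chr6:115360951-115490399) was present in the nonclassical monocytes of every library, at 175 CPM in PPARγ-/- tumor, 191 CPM in WT tumor and 167 CPM in WT healthy cells, from 594, 305 and 233 UMIs. The log2 ratio of PPARγ-/- tumor over WT tumor was -0.13 (-0.33 to 0.07). The libraries count the 3' end of transcripts, and the labels do not say which exons the floxed allele removes, so this level does not check the deletion. With every cell thinned to 1000 UMIs, a Pparg UMI was found in 15.9%, 17.3% and 13.1% of the cells in the same order, against at most 0.43% of T cells. Before thinning, the WT tumor and WT healthy shares were 38.8% and 44.7%, and the PPARγ-/- tumor share was 38.01%. Of the partners, Rxra had 11.5 CPM in PPARγ-/- tumor and 18.2 CPM in WT tumor, not past the rule, and the liver X receptor Nr1h3 was called higher at 46.2 against 25.1 CPM (0.88, 0.37 to 1.42). Ppara was at 0 in all 3 libraries.

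Among genes that PPARγ is known to switch on, 5 of 18 read were called lower, beside 5.97% of all genes, and 2 higher, Nr1h3 and Slc25a20, beside 4.52%. The list had a median log2 ratio of -0.07, and all genes 0.01. The fatty acid transporter Cd36 (ENSMUSG00000002944, chr5:17781690-17888801) had 294 CPM in PPARγ-/- tumor and 628 CPM in WT tumor, with 485 CPM in WT healthy cells (PPARγ-/- tumor over WT tumor -1.10, -1.22 to -0.97). The fatty acid binding protein Fabp4 (ENSMUSG00000062515) had 116, 364 and 209 CPM in the same order (-1.65, -1.84 to -1.47). Plin2, which coats lipid droplets (ENSMUSG00000028494), had 97.7, 371 and 449 CPM (-1.93, -2.12 to -1.73). PPARγ-/- tumor was the lowest of the 3 libraries for each of these genes. The sterol exporter Abcg1 was lower too, at 59.2 against 145 CPM (-1.29, -1.57 to -1.01).

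The carrier Fabp5 was called lower as well, at 123 CPM in PPARγ-/- tumor and 426 CPM in WT tumor, but 1 cell held 21.1% of its WT tumor UMIs and its level was open to free RNA, as defined in the processing. Other targets were not called. The droplet gene Hilpda, open to free RNA, had 4.42 and 3.76 CPM, the carnitine transferase Cpt1a 41.5 and 59.0 CPM, Acaa2 42.1 and 37.6 CPM and the uncoupling protein Ucp2 644 and 677 CPM in PPARγ-/- tumor and WT tumor. The mitochondrial carnitine carrier Slc25a20 was called higher at 23.6 against 14.4 CPM (0.71, 0.02 to 1.44).

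The lower levels reached across cells. After thinning, a Cd36 UMI was found in 23.7% of PPARγ-/- tumor and 44.4% of WT tumor cells, a Fabp4 UMI in 12.5% and 29.0%, and a Plin2 UMI in 7.01% and 29.0%, against at most 2.23% of T cells for any of these genes and libraries. Unthinned shares were 51.4% and 72.7% for Cd36, 28.9% and 53.7% for Fabp4, and 25.3% and 57.9% for Plin2. The median depth was 2978 UMIs in PPARγ-/- tumor and 2899.5 in WT tumor nonclassical monocytes, and 2741.5 and 3066.5 UMIs in T cells. Subtracting the estimated free RNA left the log2 ratios at -1.10 for Cd36, -1.64 for Fabp4 and -1.98 for Plin2. Plin2 lay the other way round in C1q macrophages, at 483 CPM in PPARγ-/- tumor and 145 CPM in WT tumor, and so did Fabp4 (18.0 and 8.42 CPM). Cd36 was lower there too (66.0 and 155 CPM). The C1q rule took 1030 cells in PPARγ-/- tumor and 185 in WT tumor, and these cells differed in other genes as well. Pparg stood at 372 and 12.6 CPM, Cx3cr1 at 184 and 939 CPM and Ccl6 at 6626 and 664 CPM. Whether the same kind of macrophage was compared was not tested. In classical monocytes of the same libraries, Cd36 (17.5 and 68.0 CPM) and Plin2 (105 and 165 CPM) were lower as well, and Fabp4 had 0 and 3 UMIs.

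Promoter stretches of 250 bases before the start of Cd36 (chr5:17835897-17836146, minus strand) and Plin2 (chr4:86670060-86670309, minus strand) are shown because these lipid genes lay lower together. They come from RefSeq in build GRCm38.p6 and run 5' to 3', and the capitals mark AGGTCA, the hexamer that nuclear receptors such as PPARγ bind, here read on the opposite strand as TGACCT.
Cd36: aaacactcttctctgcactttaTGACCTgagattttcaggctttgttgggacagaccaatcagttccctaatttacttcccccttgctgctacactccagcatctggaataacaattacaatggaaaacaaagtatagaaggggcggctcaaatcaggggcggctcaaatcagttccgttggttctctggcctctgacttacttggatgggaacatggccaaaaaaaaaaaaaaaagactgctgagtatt
Plin2: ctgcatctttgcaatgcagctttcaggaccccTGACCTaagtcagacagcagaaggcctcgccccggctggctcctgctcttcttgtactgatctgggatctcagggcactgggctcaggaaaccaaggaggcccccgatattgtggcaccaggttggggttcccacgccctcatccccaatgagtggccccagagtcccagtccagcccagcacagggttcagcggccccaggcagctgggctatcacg
The Cd36 window lies before the start that RefSeq gives, which is inside the gene span given above. The hexamer began 228 bases before the start in Cd36 and 218 bases before it in Plin2. Of 32851 promoter windows of this length, 14.0% held it on either strand, so the match describes these letters and shows no binding. A direct repeat of the hexamer with 1 base of any kind between the copies, on either strand, was in 11 windows of all genes. Fabp4, Fabp5 and Abcg1 had no entry.

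MHC class II presents antigen to CD4+ T cells, and its genes lay well below the WT tumor level. Of 11 class II and costimulatory genes read, 9 were called lower in PPARγ-/- tumor, beside 5.97% of all genes, and 1 higher, beside 4.52%. The median log2 ratio was -1.41. The class II chain H2-Aa (ENSMUSG00000036594, chr17:34282744-34287823) had 270 CPM in PPARγ-/- tumor, 788 CPM in WT tumor and 586 CPM in WT healthy cells (PPARγ-/- tumor over WT tumor -1.54, -1.67 to -1.42). H2-Eb1, a beta chain (ENSMUSG00000060586, chr17:34305867-34316674), had 160, 561 and 203 CPM (-1.81, -1.97 to -1.66). The invariant chain Cd74, which escorts class II molecules, had 1030, 2598 and 2101 CPM (-1.34, -1.40 to -1.27). PPARγ-/- tumor was again the lowest library for each of the 3 genes.

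The rest of the pathway lay the same way. H2-Ab1 had 224 CPM in PPARγ-/- tumor and 722 CPM in WT tumor (-1.69), and the peptide editors H2-DMa (54.8 and 85.3 CPM) and H2-DMb1 (37.1 and 64.6 CPM) were called lower by less. Ciita, the master activator of class II genes, had 6.77 and 34.5 CPM (-2.35, -3.12 to -1.62), with 21.8% of its WT tumor UMIs in 1 cell. The costimulatory ligand Cd80 was lower at 5.00 against 14.4 CPM, Cd86 was at 67.4 against 97.2 CPM and not called, and the costimulatory receptor Cd40 was called higher at 43.6 against 21.3 CPM (1.03, 0.49 to 1.61).

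Class II RNA was unevenly spread over the cells. No UMI of H2-Aa, H2-Ab1 or H2-Eb1 was found in 72.5% of PPARγ-/- tumor, 56.5% of WT tumor and 69.7% of WT healthy cells. Cells with at least 1% of their UMIs in these genes numbered 9, 20 and 6, and 3, 3 and 2 of them held a dendritic marker. Without the cells that held a dendritic or neutrophil marker, the list's median was -1.20, with 7 of 10 genes called lower and 1 higher. After thinning, an H2-Aa UMI was found in 9.86%, 17.8% and 12.3% of nonclassical monocytes and in 2.44%, 4.38% and 0.728% of T cells (unthinned, 17.5%, 29.0% and 23.8% of nonclassical monocytes). In other classes H2-Aa had 699 CPM in PPARγ-/- tumor and 7290 CPM in WT tumor C1q macrophages, 2037 and 2374 CPM in classical monocytes, and 1824 and 1228 CPM in alveolar macrophages, of which PPARγ-/- tumor held 10 cells. The C1q macrophages of these libraries differed in other genes too, as given above. At the shares estimated above, free RNA would give 35.9 CPM of Cd74 in PPARγ-/- tumor and 74.2 CPM in WT tumor cells.

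The same windows of H2-Aa (chr17:34287824-34288073, minus strand) and H2-Eb1 (chr17:34305617-34305866, plus strand) are shown because class II promoters share a Y box, the CCAAT element that NF-Y binds. Capitals mark its letters, CTGATTGG.
H2-Aa: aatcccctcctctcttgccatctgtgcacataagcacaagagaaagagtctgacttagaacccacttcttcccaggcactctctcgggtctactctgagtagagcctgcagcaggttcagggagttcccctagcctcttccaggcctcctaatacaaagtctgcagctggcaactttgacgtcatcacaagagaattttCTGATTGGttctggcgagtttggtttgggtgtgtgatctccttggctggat
H2-Eb1: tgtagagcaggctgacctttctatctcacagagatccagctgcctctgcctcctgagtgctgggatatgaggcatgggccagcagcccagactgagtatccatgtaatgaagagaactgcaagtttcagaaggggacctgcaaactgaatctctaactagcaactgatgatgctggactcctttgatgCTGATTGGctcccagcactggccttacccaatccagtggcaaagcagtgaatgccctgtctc
The Y box began 51 bases before the start in H2-Aa and 62 bases before it in H2-Eb1, and 3.83% of the 32851 windows held it on either strand. The Cd36 window also held these letters, on the opposite strand, and the H2-Eb1 window also held the hexamer AGGTCA, so neither motif kept the lists apart. Of the 14 genes called lower in the 2 lists, 8 had a promoter entry, and 3 of the 8 held the Y box and 4 the hexamer.

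No MHC class I gene of 11 read was called between the tumor libraries, beside 10.5% of all genes. H2-D1 had 2538 CPM in PPARγ-/- tumor and 2381 CPM in WT tumor, and B2m, the shared light chain, 6275 and 6113 CPM. Members of the class I family are close in sequence, so their reads may be split between them.

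In the list of inflammatory cytokines and NF-kB feedback genes, more were called higher than lower in PPARγ-/- tumor cells. Of 16 read, 6 were higher, beside 4.52% of all genes, and 1 lower, beside 5.97%, with a median of 0.38. The anti-inflammatory cytokine Il10 (ENSMUSG00000016529, chr1:131019845-131024974) had 50.9 CPM in PPARγ-/- tumor, 4.39 CPM in WT tumor and 1.44 CPM in WT healthy cells, from 173, 7 and 2 UMIs (PPARγ-/- tumor over WT tumor 3.54, 2.46 to 4.87). In thinned cells an Il10 UMI was found in 3.40% of PPARγ-/- tumor, 0.701% of WT tumor and none of the 244 WT healthy cells (exact upper limit 1.5005%), and in none of the T cells (unthinned 8.98%, 1.17% and 0.82%). In PPARγ-/- tumor, Il10 was at 0 CPM in classical monocytes and C1q macrophages. Of the 173 Il10 UMIs of its nonclassical monocytes, 79.2% lay in 46 cells. The feedback inhibitors of NF-kB signaling Nfkbia (873 against 491 CPM, 0.83) and Tnfaip3 (88.9 against 57.7 CPM, 0.62) and the adhesion ligand Icam1 (193 against 99.1 CPM, 0.96) were called higher too. So was the chemokine Cxcl2 (159 against 46.4 CPM), with 80.5% of its PPARγ-/- tumor UMIs in 46 cells. The cytokine Il1b stood at 826 CPM in PPARγ-/- tumor and 592 CPM in WT tumor, not past the limit, and Tnf at 58.0 and 54.6 CPM.

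Growth factors and checkpoint ligands shape vessels, matrix and T cell responses. Of 10 growth factor and checkpoint genes read, 3 were called higher, beside 4.52% of all genes, and 1 lower, beside 5.97%. Pdgfb, a platelet-derived growth factor chain, had 379 CPM in PPARγ-/- tumor and 147 CPM in WT tumor (1.36, 1.16 to 1.57). The membrane metalloproteinase Mmp14 (ENSMUSG00000000957) had 91.9 and 17.6 CPM (2.39), and the checkpoint ligand Pdcd1lg2 40.3 and 16.9 CPM (1.25, 0.65 to 1.90). Cd274, which encodes PD-L1, was level at 196 and 199 CPM (-0.02, -0.22 to 0.17). The gene called lower, Thbs1, had 60% of its 20 WT tumor UMIs in 1 cell.

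The largest ratios outside these lists were named by a rule on size, and Il10, Mmp14, Fcgrt, Ccl9, Plin2, H2-Eb1 and Fosb were among them as well. Highest were Gpr84, a receptor for medium-chain fatty acids (60.6 CPM in PPARγ-/- tumor and 6.27 CPM in WT tumor, 3.27), the secreted ligand Wnt6 (89.5 and 10.0 CPM, 3.16), the uridine phosphorylase Upp1 (21.5 and 2.51 CPM, 3.10), the acyl-CoA thioesterase Acot7 (27.1 and 4.39 CPM, 2.63), Ifi205 (30.3 and 5.64 CPM), the chemerin receptor Cmklr1 (46.5 and 9.41 CPM, 2.31), Ralgps2 (18.0 and 3.76 CPM) and the hemoglobin-binding Hp (796 and 213 CPM, 1.90, 1.74 to 2.07). Wnt6 was at 0 CPM in the classical monocytes of all 3 libraries and at 0.473 CPM in the C1q macrophages of PPARγ-/- tumor. Hp was high in the classical monocytes of every library, at 863, 513 and 506 CPM in PPARγ-/- tumor, WT tumor and WT healthy. In thinned cells an Hp UMI was found in 48.5% of PPARγ-/- tumor, 17.5% of WT tumor and 9.84% of WT healthy nonclassical monocytes, against at most 0.406% of T cells (unthinned 74.0%, 40.0% and 34.4%).

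**Figure D3:**
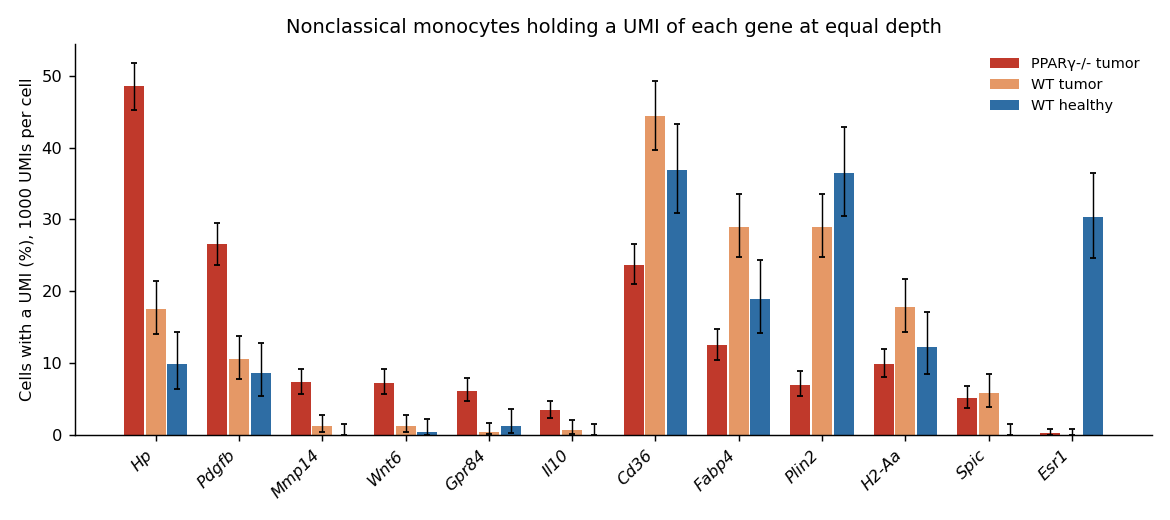
Share of nonclassical monocytes with at least 1 UMI of each gene after thinning every cell to 1000 UMIs, with exact 95% binomial intervals, for PPARγ-/- tumor, WT tumor and WT healthy. Hp reaches 48.5% in PPARγ-/- tumor, Plin2 is at 7.01% there, and Esr1 is found in 30.3% of WT healthy cells.

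Lowest were Ifi202b, with 0 UMIs in PPARγ-/- tumor, 52 UMIs in WT tumor and 96 UMIs in WT healthy cells (upper limit of the log2 ratio to WT tumor -4.86), the lectin receptor Clec4b1 (4.12 and 31.4 CPM, -2.93), the neonatal Fc receptor Fcgrt (10.6 and 75.9 CPM, -2.84, -3.42 to -2.29), Phlda3 (5.89 and 30.1 CPM), Batf3, a factor of dendritic and other myeloid cells (5.59 and 25.7 CPM, -2.20), the disulfide-forming oxidase Qsox1 (18.0 and 75.9 CPM, -2.08) and the immediate-early gene Fosb (16.2 and 55.8 CPM). Fcgrt was also lower in PPARγ-/- tumor than in WT tumor in classical monocytes (26.3 and 51.0 CPM), C1q macrophages (27.2 and 141 CPM) and alveolar macrophages (84.6 and 140 CPM). Ifi202b and Ifi205 belong to a family of similar sequences, so their counts are uncertain. The labels name no strain, and the part of strain background in the Ifi202b counts was not tested.

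Genes of Fc-mediated uptake were mostly level. Of 15 genes read, 2 were called higher, beside 4.52% of all genes, and 1, Fcgrt, lower, beside 5.97%. The complement receptor C5ar1 had 117 CPM in PPARγ-/- tumor and 46.4 CPM in WT tumor (1.34, 0.98 to 1.71). Fcgr4, the activating receptor typical of these cells, was at 287 and 421 CPM, not past the limit. Among 15 crawling and egress genes, 1 was called lower, beside 5.97% of all genes, and none higher, beside 4.52%, so the list was near the share of all genes. The gene called was the bone marrow retention receptor Cxcr4, at 164 CPM in PPARγ-/- tumor, 285 CPM in WT tumor and 454 CPM in WT healthy cells (PPARγ-/- tumor over WT tumor -0.80, -0.98 to -0.62). The integrin chains Itgam (504 and 479 CPM), Itgb2 (935 and 868 CPM) and Itgb1 (546 and 539 CPM) were not called.

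Chemokine genes pointed lower, and part of this rested on few cells. Of 14 read, 8 were called lower, beside 5.97% of all genes, and 1 higher, beside 4.52%, with a median of -0.77. Without the dendritic or neutrophil marker cells, 5 of 12 were lower and 2 higher, with a median of -0.25. Ccl9 was lower at 41.2 CPM in PPARγ-/- tumor, against 162 CPM in WT tumor and 162 CPM in WT healthy cells (PPARγ-/- tumor over WT tumor -1.98, -2.29 to -1.68). The monocyte chemokine receptor Ccr2, which the rule for classical monocytes uses, had 86.0 and 151 CPM (-0.81), and the monocyte attractant Ccl2 was higher at 22.7 against 8.15 CPM (1.48, 0.62 to 2.45).

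Of 20 interferon response genes, 10 were called lower in PPARγ-/- tumor, beside 5.97% of all genes, and none higher. Several of these ratios rested on 1 WT tumor cell for each gene, which held 71.3% of the WT tumor UMIs of Rsad2, 88% of those of Ifit1, 79.1% of Ifit2 and 75.8% of Cxcl9. The abundant members were level, with Ifi27l2a at 738 and 763 CPM and Ifitm3 at 3303 and 2711 CPM in PPARγ-/- tumor and WT tumor. Without the marker cells the median was -0.40, and 8 of 19 genes were lower and 1 higher.

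Genes that respond to tissue handling lay in both directions. Of 21 immediate-early and heat-shock genes, 3 were called higher, beside 4.52% of all genes, and 6 lower, beside 5.97%. The chaperone Hspa1a had 1281 CPM in PPARγ-/- tumor, 601 CPM in WT tumor and 1642 CPM in WT healthy cells, and Fos 247, 423 and 717 CPM. The part of handling in the other differences was not tested. In the macrophage maturation list 7 of 17 genes were lower, beside 5.97% of all genes, and none higher. Of these 7, 6 were open to free RNA, Cd63, Ctsd, Gpnmb, Mertk, Mrc1 and Ms4a7. Without the dendritic or neutrophil marker cells, 4 of 16 were lower and 2 higher, and the Cd63 log2 ratio was 1.13, against -1.55 with them. No gene of cholesterol synthesis (20 read), glycolysis (15) or oxidative phosphorylation (16) was called, beside 10.5% of all genes. The survival list had 1 of 14 lower, beside 5.97%.

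**Figure D4:**
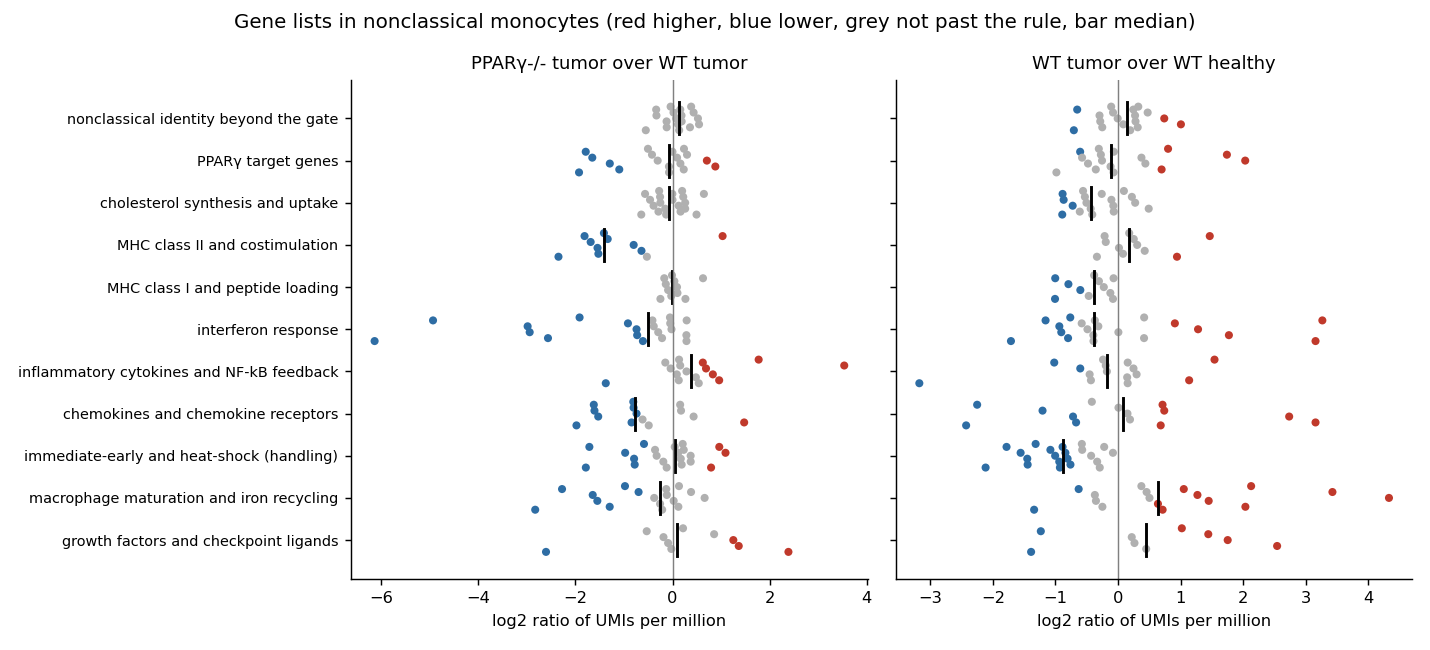
Log2 ratios of CPM for the genes of 11 lists, PPARγ-/- tumor over WT tumor (left) and WT tumor over WT healthy (right), 1 point for each gene read; red points were called higher, blue points lower, and black bars are medians. MHC class II genes lie lower in PPARγ-/- tumor with a median of -1.41, and handling genes lie lower in WT tumor than in WT healthy with a median of -0.89.

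In nonclassical monocytes of WT tumor lungs, Spic, Cd274, Bcl2a1d and Bcl2a1b were called higher than in those of WT healthy lungs, and 14 of 21 handling genes and 4 of 11 class I genes were called lower. Of 8370 genes read, 442 were called higher in WT tumor (5.28%) and 490 lower (5.85%), 932 in all (11.1%). The median log2 ratio over these genes was -0.00274. This comparison shares the WT tumor library with the one above, and WT healthy cells were deeper, with a median of 4602.5 UMIs against 2899.5 in WT tumor.

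Identity genes lay in both directions, with 2 of 18 called higher, beside 5.28% of all genes, and 2 lower, beside 5.85%. Cx3cr1 had 739 CPM in WT tumor and 443 CPM in WT healthy cells (0.74, 0.60 to 0.88), and Fcgr4 421 and 210 CPM (1.00, 0.80 to 1.21). Nr4a1 was lower in WT tumor at 1123 CPM, against 1764 CPM in WT healthy (-0.65, -0.74 to -0.56), and so was the adhesion molecule Ceacam1 at 231 against 376 CPM. Nr4a1 is also an immediate-early gene, and the other NR4A genes lay lower too. Nr4a2 had 33.9 against 116 CPM (-1.78, -2.25 to -1.33) and Nr4a3 15.1 against 40.9 CPM. Ly6c2, a classical monocyte gene, was lower in WT tumor, at 63.3 against 163 CPM, and a Ly6c2 UMI was found in 5.70% of PPARγ-/- tumor, 5.14% of WT tumor and 23.4% of WT healthy cells without thinning.

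Spic, a factor of iron-recycling macrophages (ENSMUSG00000004359, chr10:88674772-88685015), had 66.5 CPM in PPARγ-/- tumor, 77.1 CPM in WT tumor and 7.18 CPM in WT healthy cells (WT tumor over WT healthy 3.43, 2.50 to 4.52). Both tumor libraries were high, and they did not differ by the rule (PPARγ-/- tumor over WT tumor -0.21, -0.54 to 0.12). Heme oxygenase Hmox1 was called higher as well, at 333 CPM in WT tumor and 214 CPM in WT healthy cells (0.64). So was the lipoprotein Apoe at 3246 and 1981 CPM (0.71, 0.65 to 0.78), and the macrophage surface gene Adgre1 at 144 and 59.6 CPM (1.27, 0.90 to 1.65). Spic itself was at most 17.5 CPM in classical monocytes and at most 6.31 CPM in C1q macrophages of any library. Of 17 genes of the maturation list, 9 were called higher, beside 5.28% of all genes, and 2 lower, beside 5.85%, with a median of 0.64. Without the marker cells these were 5 of 15 and 1 of 15, with a median of 0.34. Cd63 (57.7 and 2.87 CPM), Ctsd (460 and 222 CPM), Gpnmb (38.3 and 9.34 CPM), Mertk (18.8 and 4.31 CPM) and Mrc1 (78.4 and 28.7 CPM) lay higher in WT tumor. Between the tumor libraries these genes were open to free RNA. Estimated free RNA was 1.78% of the UMIs in WT tumor and 0.751% in WT healthy cells.

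The BCL2 relatives Bcl2a1d (74.6 CPM in WT tumor and 13.6 CPM in WT healthy, 2.45, 1.75 to 3.23) and Bcl2a1b (273 and 118 CPM, 1.21), which restrain cell death, were the 2 survival genes called higher of 14, beside 5.28% of all genes, and none was lower. They are near copies of each other, so the division of reads between them is uncertain. Bcl2, Mcl1 and Klf4 were not called. Csf1r, the receptor for the survival signal, was at 889 CPM in WT tumor and 1202 CPM in WT healthy cells (-0.43), short of the limit. Cd274 was higher at 199 CPM, against 98.4 CPM (1.02, 0.73 to 1.32), and Pdcd1lg2 at 16.9 against 5.03 CPM (1.75, 0.52 to 3.20). Relb, an NF-kB subunit, was higher at 91.6 against 41.7 CPM (1.14).

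Class I genes were lower in WT tumor, with 4 of 11 called, beside 5.85% of all genes, and none higher. H2-D1 had 2381 CPM in WT tumor and 4780 CPM in WT healthy cells (-1.01, -1.06 to -0.95), and Nlrc5, the activator of class I genes, 15.1 and 30.2 CPM. Of 20 interferon response genes, 6 were lower, beside 5.85% of all genes, among them Ifi27l2a (763 and 1461 CPM, -0.94), and 5 were higher, beside 5.28%. Those 5, Rsad2, Ifit1, Ifit2, Cxcl9 and Cxcl10, each had 60.8% or more of their WT tumor UMIs in 1 cell. Class II genes had 2 of 11 called higher, beside 5.28% of all genes. These were H2-Eb1 (561 and 203 CPM, 1.47, 1.27 to 1.66) and Ciita. The PPARγ targets had 4 of 17 called higher, beside 5.28% of all genes, and 1 lower, beside 5.85%. Fabp4 was at 364 and 209 CPM (0.80) and the cholesterol exporter Abca1 at 40.8 and 12.2 CPM (1.74, 0.95 to 2.60). Cd36 and Plin2 were not called.

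Handling genes were lower in WT tumor, with 14 of 21 called, beside 5.85% of all genes, and none higher, and a median of -0.89. Atf3 had 206 CPM in WT tumor and 605 CPM in WT healthy cells (-1.56), Hsph1 28.8 and 125 CPM (-2.11) and Hspa8 1236 and 2284 CPM (-0.89). The inflammatory chemokines Cxcl2 (46.4 and 419 CPM, -3.17) and Ccl3 (135 and 312 CPM, -1.21) lay the same way, and 1 WT healthy cell held 32.4% of the Cxcl2 UMIs. Of 18 cholesterol synthesis genes read, 4 were called lower, beside 5.85% of all genes. Among them were the squalene epoxidase Sqle at 19.4 and 35.9 CPM (-0.89) and the sterol sensor Insig1 at 38.3 and 63.2 CPM (-0.72). The part of handling in these differences was not tested.

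Esr1, the estrogen receptor alpha gene (ENSMUSG00000019768, chr10:4611593-5005614), was the gene furthest apart among those named, at 4.12 CPM in PPARγ-/- tumor, 1.88 CPM in WT tumor and 325 CPM in WT healthy cells (WT tumor over WT healthy -7.43, -9.71 to -5.87). It was high in the classical monocytes (399 CPM), C1q macrophages (101 CPM) and alveolar macrophages (106 CPM) of the WT healthy library too, and at 7.53 CPM in its T cells. The part of strain background or transgenes in this difference was not tested. Other genes far lower in WT tumor were Rfx2 (4.39 and 33.8 CPM), the phospholipid flippase subunit Atp11b (72.7 and 442 CPM, -2.60), Fam71a, the arylsulfatase Arsb (8.78 and 40.9 CPM), Tppp3 (80.9 and 335 CPM, -2.05), Pdlim1 and Ecpas. Atp11b was also lower in WT tumor classical monocytes (55.9 and 284 CPM) and alveolar macrophages (84.9 and 265 CPM). In T cells it was level (202 and 205 CPM). Besides Spic, Bcl2a1d and Abca1, the highest included the elongation factor Tcea3 (40.8 and 7.18 CPM, 2.51), Riox2, Arhgap31 (67.7 and 18.7 CPM, 1.86), Phlda3, Strada and Ggct (79.0 and 27.3 CPM, 1.53).

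Set against the other myeloid cells of the same libraries, the chosen cells stood apart in genes that the rules did not use. UMIs were summed by library and class and tested with edgeR's quasi-likelihood test with the library as a block, over 9 sums of at least 50 cells and 10022 genes. Since the classes were cut from the same cells by gene content, these tests describe the chosen cells. Over classical monocytes, 47 genes were higher (0.469%) and 43 lower (0.429%), 90 in all (0.898%), at an adjusted p under 0.05. The ion cotransporter Slc12a2 (log2 fold change 6.66, SE 0.431, edgeR adjusted p = 0.00548) had 210, 257 and 273 CPM in nonclassical and 8.76, 2.43 and 2.33 CPM in classical cells of PPARγ-/- tumor, WT tumor and WT healthy. S1pr5, the egress receptor for sphingosine 1-phosphate (5.00, SE 0.425, edgeR adjusted p = 0.00939), had 168, 153 and 167 CPM, against 13.1, 7.29 and 2.33 CPM. The phosphatase Dusp16, Fcgr4, the transglutaminase Tgm2, the inhibitory receptor Lair1 and Pglyrp1 were higher as well. Lower were the matrix proteoglycan Vcan (-5.83, SE 0.495), with Cd177, Capg and S100a6. All 3 libraries lay the same way for each gene given here.

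**Figure D5:**
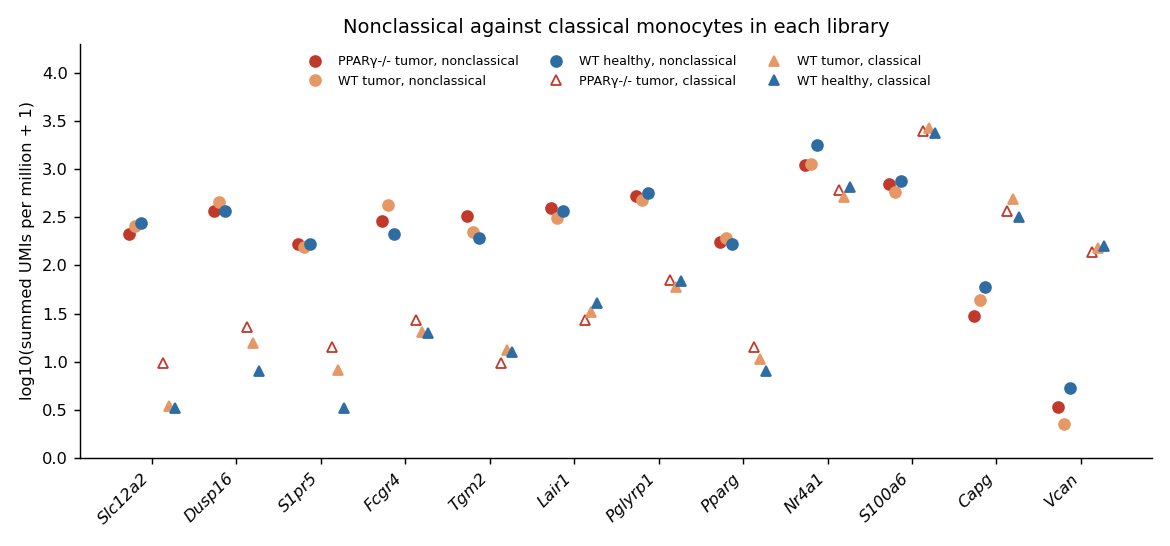
Log10 of CPM + 1 in each library for nonclassical monocytes (circles) and classical monocytes (triangles), for 12 genes; the open triangles are the 45 classical cells of PPARγ-/- tumor, too few to enter the fit. Slc12a2, Dusp16, S1pr5 and Pparg are higher in nonclassical cells of every library, and Vcan and Capg lower.

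Of 18 identity genes beyond the gate, 4 were called higher than in classical monocytes (Dusp16, Fcgr4, Pglyrp1 and Gngt2), beside 0.469% of all genes. None was called lower, beside 0.429%. Nr4a1 was at 1092, 1123 and 1764 CPM in nonclassical and 600, 515 and 653 CPM in classical cells of PPARγ-/- tumor, WT tumor and WT healthy (1.47, SE 0.38, edgeR adjusted p = 0.123). Pparg was at 175, 191 and 167 CPM against 13.1, 9.72 and 6.99 CPM (3.96, SE 1.34, edgeR adjusted p = 0.194), above classical cells in every library but not called. Cd36 and Fabp4 were also above classical cells in each library and not called.

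Over C1q macrophages, tissue macrophages marked by complement genes, 1039 genes were higher (10.4%) and 1295 lower (12.9%), 2334 in all (23.3%). Over alveolar macrophages, which fill the air spaces, 1643 were higher (16.4%) and 1828 lower (18.2%), 3471 in all (34.6%). The C1q macrophages of WT healthy (44 cells) and the alveolar macrophages of PPARγ-/- tumor (10 cells) were too few to enter the fit. Their levels below are descriptions. Of the 18 identity genes, 16 and 15 were called higher and none lower in the pair of comparisons. Of 15 crawling and egress genes, 11 were higher than in C1q macrophages and 10 than in alveolar macrophages, and none was lower. Of 12 class II genes, 7 were lower than in C1q macrophages, with H2-Aa at 270, 788 and 586 CPM in nonclassical monocytes and 699, 7290 and 6290 CPM in C1q macrophages of PPARγ-/- tumor, WT tumor and WT healthy. Of 20 PPARγ targets, 9 were lower than in alveolar macrophages and none higher, although Pparg itself was close, at 175, 191 and 167 CPM against 254, 164 and 205 CPM (-0.40, SE 0.838, edgeR adjusted p = 0.735). In C1q macrophages Pparg stood at 372 CPM in PPARγ-/- tumor, 12.6 CPM in WT tumor and 24.4 CPM in WT healthy. Cell cycle genes were lower than in both, 9 and 12 of 15.

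Without the WT healthy library, 1 classical and 1 alveolar sum remained in the fit, and edgeR called no gene over classical monocytes or over alveolar macrophages. With 1 sum left in a class, the spread within that class cannot be measured, so this fit cannot decide the calls above.

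Within a library, nonclassical monocytes thinned to equal depth varied in the nuclear RNA Malat1, with a variance of 9.19 times its mean in PPARγ-/- tumor, 9.51 in WT tumor and 8.30 in WT healthy. In PPARγ-/- tumor, an Apoe UMI was found in 72.2% of thinned cells, with a ratio of variance to mean of 5.31, and the ratio was 4.79 for the lysozyme gene Lyz2, 4.70 for Lyz1 and 4.18 for H2-Aa. In WT tumor, the ratio of variance to mean was 28.7 for Ccl4, but a UMI was in only 3.97% of the cells, so this ratio rested on few cells. In WT healthy cells the ratio was 7.99 for Cd74 and 7.39 for Cxcl2.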

How the data were processed

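Values are whole UMI counts, not normalized, as deposited. Per the file headers they come from Cell Ranger 4, while the submitters' processing notes list Cell Ranger 6.0.1, Seurat 4.0.1 and build mm10. The labels name a 3' kit, version 2. Libraries list 32285 genes.

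Members, gene lists and tests were chosen with earlier results of these data known. UMIs were summed over the chosen cells. Genes with at least 20 UMIs over both libraries were compared as log2 ratios of CPM with exact conditional 95% intervals. Since each group is 1 library of pooled cells, intervals cover counting error only. A gene is open to free RNA where 10% of its CPM in barcodes of 10 to 100 UMIs reaches 50% of its CPM in the cells. Named genes were list members with the most UMIs or past 1.5-fold, and per comparison the 10 highest and 10 lowest ratios among called genes with at least 50 UMIs over both libraries, without sex-linked, ribosomal, hemoglobin and unnamed genes, genes open to free RNA and genes with over 20% of UMIs in 1 cell. For classes, those were the 15 highest and 10 lowest called with at least 100 CPM, of which a part is given.

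Class sums were tested with edgeR 4.0.16 (R 4.3.3), and DESeq2 1.42.0 was an alternative. The library pairs the classes, because both come from the same pooled mice. The p-values measure the spread between 9 class sums of 3 libraries, with 3 residual degrees of freedom. Left out of the fit were the classical (45 cells) and alveolar (10 cells) sums of PPARγ-/- tumor. The C1q macrophage sum of WT healthy (44 cells) was left out too. Doublets were not removed. Scrublet, run through Scanpy 1.11.5, was an alternative, and marked 9 PPARγ-/- tumor, 2 WT tumor and 2 WT healthy nonclassical monocytes.

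On simulated Poisson counts for PPARγ-/- tumor over WT tumor (9225 genes read), 195 of 200 genes changed 2-fold were called, with 176 false calls. These counts hold counting error only, with no further spread between cells, mice or libraries, so they do not give the error rate of the calls here. For the class fit (9521 genes), 65 of 200 genes changed 3-fold were called, with 2 false calls. Alternatives were the marker sum, thinning, the mitochondrial limit, filters, fold, doublets, normalization, the block and single libraries. Cells with a dendritic or neutrophil marker, and class sums of under 50 cells, were looked at as alternatives added after seeing the data. Results for some genes are not reported here.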

Additional observations from a re-analysis of the deposited data

Results flagged for a closer look

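Counted here are only list members and genes named by size that were called in both classes, so other ratios can lie opposite too. For PPARγ-/- tumor over WT tumor, 7 of these genes were called one way in nonclassical and the other way in classical monocytes. For WT tumor over WT healthy, 4 were. None of these differences was tested, and the classical sums hold 45 to 70 cells. For PPARγ-/- tumor over WT tumor, the log2 ratio was -0.92 in nonclassical and 0.77 in classical monocytes for Isg15, and -2.56 and 1.30 for Ifit1, both interferon response genes. It was -0.74 and 0.96 for the chemokine Cxcl10, and -0.61 and 0.72 for Bst2, which tethers viruses to the cell surface. Thinning turned the nonclassical Cxcl10 ratio to 0.91, and leaving out cells with a dendritic or neutrophil marker to 0.54. Ly6c2 stood at -0.66 and 0.72, and the nonclassical ratio turned to 0.028 with a marker sum of at least 5 UMIs. The classical rule uses this gene, so its classical value is a description. The chemokine Cxcl2 stood at 1.77 and -0.92, and the stress gene Ier3 at 0.69 and -1.23.

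For WT tumor over WT healthy, the ratio was 2.54 in nonclassical and -2.15 in classical monocytes for the matrix gene Thbs1, and -3.17 and 0.89 for Cxcl2. It was 3.26 and -4.31 for Cxcl9, and 1.77 and -1.46 for Ifit2. In WT tumor, 1 nonclassical cell for each gene held 60% of the Thbs1, 75.8% of the Cxcl9, 79.1% of the Ifit2 and 88% of the Ifit1 UMIs.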

How the results depend on the processing

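The order of the shares, with PPARγ-/- tumor highest and WT healthy lowest, held under each rule tried. WT tumor and WT healthy were close, and their main intervals of filtered cells met (8.92% to 10.7% and 7.31% to 9.33%). The order of these 2 libraries is therefore not separated by the values. With a marker sum of at least 2, PPARγ-/- tumor and WT tumor stood at 19.1% and 11.3% of filtered cells. With at least 5, the shares were 14.0%, 7.13% and 7.06% (PPARγ-/- tumor, WT tumor, WT healthy), and 81.7% of WT tumor monocytes. With cells thinned to 2000 UMIs they were 15.6%, 7.54% and 5.93%, and 72.9% of WT healthy monocytes. With a mitochondrial limit of 5% they were 27.5%, 14.4% and 14.1%.

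For PPARγ-/- tumor over WT tumor, thinning to 1000 UMIs left 276 genes higher and 263 lower, and a 2-fold limit 206 and 274. For WT tumor over WT healthy these counts were 199 and 221, and 225 and 239. Without cells holding a dendritic or neutrophil marker they were 430 and 417, and 380 and 452. For PPARγ-/- tumor over WT tumor, list medians moved with thinning to -0.90 for class II and 0.94 for growth factors. Without the marker cells they moved to 0.015 for identity, -0.25 for chemokines and 0.23 for the survey of tumor-associated genes, and with genes of 1 UMI read, to -0.88 for the cell cycle. For WT tumor over WT healthy, the classical list's median was 0.83 with thinning, -0.054 at the 5% limit, -0.38 without the marker cells and -0.20 with genes of 1 UMI read, and the survey's was 0.21 with a marker sum of 5. The causes were not tested.

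Direction turned for 22 single ratios. For PPARγ-/- tumor over WT tumor, thinning gave 0.76 for Fn1, 0.49 for Stat2, 0.91 for Cxcl10 and Ptgs2, and 0.71 for Nr4a3, and a marker sum of 5 gave 0.028 for Ly6c2. Without the marker cells, Fn1 stood at 0.32, H2-DMb2 and Mki67 at 0.62, Cxcl10 at 0.54, Ccr1 at 0.032, Nr4a3 at 1.45, Cd63 at 1.13 and Spp1 at 0.68. For WT tumor over WT healthy, thinning gave 0.19 for Rxrb, -0.083 for Lpl, -0.40 for Cxcl10 and -0.074 for Mmp14, a marker sum of 5 gave -0.48 for Lpl and 0.98 for Vegfa, and leaving out the marker cells gave -0.38 for Chil3 and -0.40 for Spp1.

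The library pairs the classes, so the fit holds a block. With no replicate block, genes higher and lower than in classical monocytes were 125 and 106, against 47 and 43, and over C1q and alveolar macrophages 1209 and 1632, and 1626 and 1823. DESeq2 called 238 and 286 over classical monocytes, no filter 185 and 155, all class sums 400 and 267, and leaving out doublets 27 lower. All class sums gave 1644 higher than in C1q macrophages. Leaving out 1 library gave 0 to 327 genes higher and 0 to 269 lower than in classical monocytes, 273 to 821 and 362 to 783 over C1q macrophages, and 0 to 2013 and 0 to 2030 over alveolar macrophages. The fit without WT tumor could not be made. Counts of few UMIs limit genes such as Il10 and Spic.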
